A study of Mus musculus with 16 samples.

Results

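The 6 genes described here are Rspo2, Rspo3, Fzd7, Dkk3, Id2 and Id3, which encode Wnt modulators and BMP-responsive regulators. They were taken by symbol from the platform annotation, as all probes that carry one of these symbols alone, which gave 8 of 15247 probes and 6 of 7114 named genes. Rspo3 and Id2 had 2 probes each, and their probes were averaged. Total RNA was profiled on two-colour expression arrays from mouse cells of the cell types M833 and WT, with 8 arrays each. By its title the study concerns Met mutations in MEFs, a term that commonly means mouse embryonic fibroblasts. What M833 denotes is not explained in the labels, which give no allele, treatment, time or age for either cell type, nor whether a cell type is 1 clone or several cultures. Each array paired the cell sample with a common reference RNA of unstated make-up, with the cells labelled with Cy5 on 4 arrays per cell type and with Cy3 on the other 4.

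Wnt proteins signal through Frizzled receptors and the co-receptors Lrp5 and Lrp6, which stabilise beta-catenin. R-spondins are secreted proteins that raise the response to Wnt by binding Lgr receptors and the membrane ubiquitin ligases Rnf43 and Znrf3, which otherwise clear Frizzled receptors from the cell surface. Bone morphogenetic proteins (BMPs) act through receptor-activated Smads and induce Id genes, whose products lack a DNA-binding region and hold basic helix-loop-helix (bHLH) transcription factors off DNA.

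Values are log2 ratios of the cell sample to the reference, a direction that the titles make likely but that no label states. A ratio places a gene against the reference only, so ratios of different genes are not levels that can be ranked. No label states separate cultures for the arrays of a cell type. The p-values therefore reflect the spread between arrays alone, which may be technical, and the number of arrays limited the precision. By slide number, M833 replicates 6, 7 and 8, all with the sample in Cy3, formed a second slide series that held no WT array. Of the arrays, WT replicate 2 stood apart, with 49 log2 ratios beyond 8 in size and none on the others. WT replicates 1, 5 and 6 also deviated together from WT replicates 3, 4, 7 and 8, and WT replicate 2 was grouped with replicates 1, 5 and 6. Over all features other than the 6 genes, and without WT replicate 2, deviations from the fitted means correlated with r from 0.26 to 0.47 within these sets and from -0.71 to -0.36 between them. In M833 the same replicate numbers gave r from -0.33 to 0.13 within and from -0.48 to 0.05 between. No label defines these sets, and the same arrays showed them, so the correlations describe the sets and do not test them. They leave out WT replicate 2 and so do not show to which set it belongs. Deviations from a fitted mean cancel out within a cell type, which by itself makes correlations between arrays more negative. Macrophage markers were lower in M833 in all 7 of 18 listed genes that were measured, with array means of the list from -1.60 to -1.29 in M833 and from -0.46 to -0.28 in WT. Of 12 measured cell cycle genes 10 were higher in M833, with array means from 0.08 to 0.27 in M833 and from -0.58 to -0.11 in WT. All 3 measured skeletal muscle genes were higher in M833, with array means from -2.27 to -1.72 in M833 and from -2.85 to -2.17 in WT. Only 1 of these 3 muscle genes was called with the sets of arrays as a random block, 1 with ratios scaled between arrays, and 2 when either set of WT arrays was left out. Of 8 measured fibroblast markers 5 were lower in M833, with array means from -0.93 to -0.49 in M833 and from -0.60 to -0.21 in WT, and a random block for the sets left 2 of these calls. Beside these counts, 10.0% of all features were called higher and 15.9% lower. The marker lists were chosen with earlier results of these data known, so the counts are a description. The part of these markers in the differences described here was not tested. In bulk RNA fewer cells of a type and less RNA per cell cannot be told apart.

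M833 was set against WT to find which of these genes differ between the cell types. Dkk3 was lower in M833, and Id2, Id3 and Fzd7 were higher. Dkk3 had a log2 difference of -0.66 ± 0.09, Id3 one of 0.43 ± 0.06, Id2 one of 0.42 ± 0.08 and Fzd7 one of 0.16 ± 0.03 (SE, n = 8 arrays per cell type). Rspo2 and Rspo3 did not pass the test, and their WT arrays spread over more than the difference between the cell types. In the limma fit, which included the dye, 4 of the 6 genes passed a Benjamini-Hochberg adjusted p of 0.05 over 12761 features, where 25.9% of all features did. The 3 higher genes stand beside 10.0% of features called higher and the 1 lower gene beside 15.9% called lower. Within each dye orientation the M833 and WT arrays of the same 4 genes did not overlap, as for 10.5% of features. Of all features 4.01% lay above WT in this way, as Fzd7, Id2 and Id3 did, and 6.49% below, as Dkk3 did. Each of the 6 genes differed from the reference RNA in both cell types, as 72.4% of features did in M833 and 79.2% in WT. An effect of dye on the difference between cell types was called for 0 features (limma interaction term), with 0 of the 6 genes among them. The genes had been chosen with earlier results of these arrays known, so these counts are a description.

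**Figure D1:**
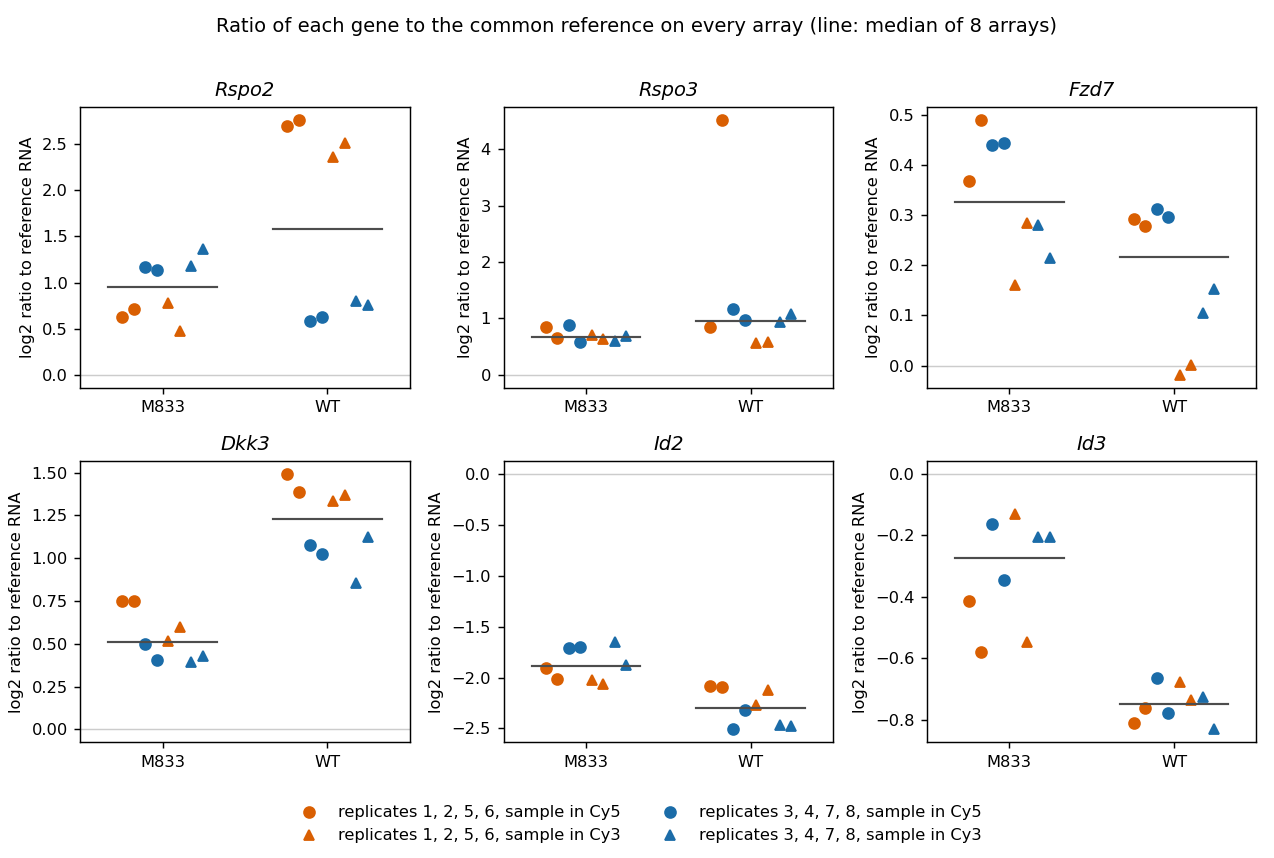
Log2 ratio to the common reference RNA (vertical axes) for each of the 6 genes on each of the 8 M833 and 8 WT arrays, with colour for the replicate set, shape for the dye of the sample and a line at the median of 8 arrays. Dkk3, Id2 and Id3 show no overlap between cell types, and Rspo2 shows WT arrays near 2.4 to 2.8 and near 0.6 to 0.8 with M833 arrays from 0.48 to 1.37.

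Rspo2, which encodes a secreted Wnt agonist needed for limb and lung development in the mouse, had the widest spread of the 6 genes once WT replicate 2 was set aside. In M833 its log2 ratio was 0.63, 0.72, 0.78 and 0.48 on its replicates 1, 2, 5 and 6, against 1.17, 1.14, 1.18 and 1.37 on replicates 3, 4, 7 and 8. In WT it was 2.69, 2.76, 2.36 and 2.52 on replicates 1, 2, 5 and 6, and 0.58, 0.63, 0.80 and 0.76 on replicates 3, 4, 7 and 8. The WT arrays thus took 2 levels, each seen with both dyes, and the whole of M833 lay below the upper level. The lower WT level overlapped with M833 replicates 1, 2, 5 and 6 and lay below M833 replicates 3, 4, 7 and 8. The mean log2 ratio was 0.93 ± 0.32 in M833 and 1.64 ± 1.02 in WT (SD after adjustment for dye, n = 8 each). The difference of -0.71 ± 0.36 (SE) did not pass the test (limma, adjusted p = 0.168), with a 95% confidence interval from -1.48 to 0.06. Without WT replicates 1, 2, 5 and 6 the difference changed sign, to 0.24 ± 0.15 (limma, adjusted p = 0.269). Without WT replicates 3, 4, 7 and 8 it was -1.65 ± 0.17 and passed (limma, adjusted p = 2.34e-05), where 36.3% of features did. The sets were seen in these same arrays, and each of these fits kept a single WT level of Rspo2. Their outcome therefore restates the levels and is no separate test. The SD of Rspo2 over the 7 WT arrays other than replicate 2, after adjustment for dye, ranked 10 among 7114 named genes.

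The genes whose dye-adjusted log2 ratio followed Rspo2 most closely over the 15 arrays without WT replicate 2 were Fchsd2 (Pearson r = 0.98), Mvd (r = 0.97), an enzyme gene of cholesterol synthesis, and Pbx3 (r = 0.97), a homeobox gene. Pbx3 spanned -0.03 to 0.02 in the M833 replicates 1, 2, 5 and 6, against 0.11 to 0.26 in the other M833 replicates. In WT it spanned 0.69 to 0.73 in replicates 1, 5 and 6, against -0.06 to 0.08 in the other WT replicates. Without WT replicate 2, Pbx3 thus separated the same sets of arrays as Rspo2, in M833 as well as in WT. These correlations are a description, since the 15 points share the cell types and the sets of arrays.

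Rspo3 is the R-spondin gene known for its part in blood vessel and placenta development in the mouse. In the fit of all arrays, the size of its difference turned on a single value. On WT replicate 2 the probes of Rspo3 disagreed, with a log2 ratio of 0.52 at probe 211135 and 8.52 at probe 211936. On the other 7 WT arrays probe 211936 lay between 0.62 and 1.31. Averaged over both probes, Rspo3 ran from 0.59 to 0.88 in M833, with a median of 0.67, and from 0.56 to 4.52 in WT, with a median of 0.96. The ranges overlapped, and the highest WT value was that of replicate 2. With all arrays the difference was -0.64 ± 0.42 (limma, adjusted p = 0.285, SE, n = 8 arrays per cell type). Without WT replicate 2 it was -0.19 ± 0.08 (limma, adjusted p = 0.0977, 8 M833 and 7 WT arrays), with a 95% confidence interval from -0.36 to -0.02. Rspo3 thus missed the threshold with and without that array, and its difference was over 3 times smaller without it.

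**Figure D2:**
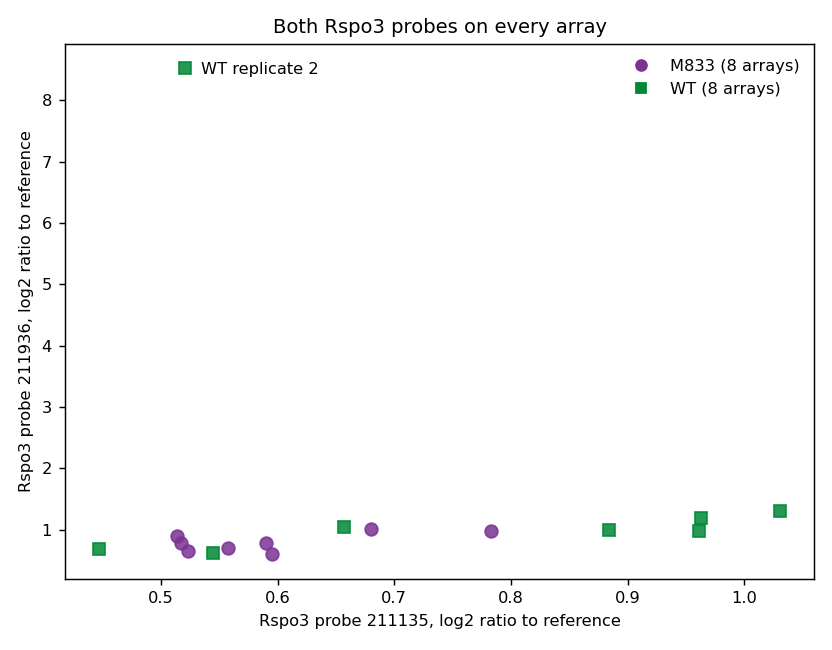
Log2 ratio to the reference at Rspo3 probe 211135 (horizontal axis) and probe 211936 (vertical axis) on each of the 8 M833 arrays (circles) and 8 WT arrays (squares). WT replicate 2 sits at 8.52 on the vertical axis and at 0.52 on the horizontal axis, inside the range of the other arrays.

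Away from that array both Rspo3 probes gave the same picture. Their log2 ratios correlated with r = 0.83 over the 15 other arrays and with r = -0.12 over all 16. With WT replicate 2 left out, the difference was -0.20 ± 0.08 at probe 211135 and -0.19 ± 0.09 at probe 211936, neither past the test (limma, adjusted p = 0.0887 and 0.149). On the remaining WT arrays the sets lay the other way round from Rspo2, with replicates 1, 5 and 6 below the others and without a clear gap. Rspo3 was 0.85, 0.56 and 0.58 on WT replicates 1, 5 and 6, within or just below the M833 range, and 1.17, 0.97, 0.94 and 1.08 on WT replicates 3, 4, 7 and 8, above every M833 array. Without WT replicates 1, 2, 5 and 6 the difference was -0.34 ± 0.06 and passed (limma, adjusted p = 0.000837), where 33.9% of features did. With WT replicates 1, 5 and 6 alone it was 0.01 ± 0.07 (limma, adjusted p = 0.926). The sets were seen in these same arrays, and the fit that passed kept only WT arrays above every M833 array. Both fits therefore restate the values of the sets and are no separate test. The genes most like Rspo3 over the 15 arrays were Rnf11 (r = 0.94), Atf6 (r = 0.93), a sensor gene of endoplasmic reticulum stress, and Myl12a (r = 0.93), a gene of a regulatory myosin light chain.

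Fzd7, which encodes a Frizzled receptor for Wnt proteins, was slightly higher in M833, by 1.12-fold. With the sample in Cy5 its log2 ratio was 0.37, 0.49, 0.44 and 0.44 in M833 and 0.29, 0.28, 0.31 and 0.30 in WT. With the sample in Cy3 it was 0.16, 0.28, 0.28 and 0.22 in M833 and -0.02, 0.002, 0.10 and 0.15 in WT. Within each dye every M833 array lay above every WT array, and across dyes the cell types overlapped. The ratio itself depended on the dye, being 0.22 higher with the sample in Cy5 than with it in Cy3 (limma, adjusted p = 5.53e-05), as 41.3% of features did in either direction. The difference of 0.16 ± 0.03 (SE, n = 8 arrays per cell type) passed with dye in the model (limma, adjusted p = 0.00171) and not without it (limma, adjusted p = 0.11). Leaving out either set of 4 WT arrays kept the call, with 0.12 when replicates 1, 2, 5 and 6 were left out and 0.20 when the other 4 were. The genes most like Fzd7 over the 15 arrays were Taf1d (r = 0.92), Ddx20 (r = 0.90) and Seh1l (r = 0.89).

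The stretch of 250 bases before the start of Fzd7 is printed because the TCF and LEF factors, which carry the Wnt signal to DNA, bind a core that reads CTTTG or, on the opposite strand, CAAAG. It lies at chr1:59481897-59482146 on the plus strand of GRCm38.p6, from RefSeq, and capitals mark the match to this core.
Fzd7: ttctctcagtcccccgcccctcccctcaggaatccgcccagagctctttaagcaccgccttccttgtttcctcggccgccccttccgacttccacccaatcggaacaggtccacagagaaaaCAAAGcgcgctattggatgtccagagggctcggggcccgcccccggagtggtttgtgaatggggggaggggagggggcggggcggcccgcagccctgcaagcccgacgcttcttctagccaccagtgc
The single match began 128 bases before the start, and 48.6% of 32851 promoter windows of this length held the core on either strand.

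Dkk3 encodes a secreted glycoprotein of the Dickkopf family that, unlike Dkk1, is not a general blocker of the Wnt co-receptors. Its log2 ratio ran from 0.39 to 0.75 in M833, with a median of 0.51, and from 0.86 to 1.49 in WT, with a median of 1.23. The cell types did not overlap, whichever the dye, as was the case for 4.59% of features counting both directions. The mean was 0.54 ± 0.13 in M833 and 1.21 ± 0.22 in WT (SD after adjustment for dye, n = 8 each), above the reference in both. The difference of -0.66 ± 0.09 (limma, adjusted p = 5.25e-05, 95% confidence interval from -0.85 to -0.48) corresponds to a level in M833 that is 0.631 times that in WT. By size it ranked 105 among 7114 named genes.

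The sets of arrays were visible in Dkk3 without joining the cell types. WT replicates 1, 2, 5 and 6 lay between 1.34 and 1.49 and WT replicates 3, 4, 7 and 8 between 0.86 and 1.12. In M833, replicates 1, 2, 5 and 6 lay between 0.52 and 0.75 and replicates 3, 4, 7 and 8 between 0.39 and 0.50. The difference was -0.48 when WT replicates 1, 2, 5 and 6 were left out and -0.85 when the other 4 WT arrays were, and passed each time. The genes most like Dkk3 were Pisd-ps3 (r = 0.98), Ly6e (r = 0.97), which encodes a membrane protein of the Ly6 family, and Gja1 (r = 0.97), a gap junction gene, over the same 15 arrays.

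Id2 and Id3 encode dominant-negative partners of bHLH transcription factors and are classic early targets of BMP signalling. Their ratios were negative in M833 and in WT, and less so in M833. Id3 ran from -0.58 to -0.13 in M833, with a median of -0.27, and from -0.83 to -0.66 in WT, with a median of -0.75. All 8 M833 arrays lay above all 8 WT arrays, and the M833 arrays were the more spread, with an SD of 0.17 in M833 and 0.06 in WT. Its difference was 0.43 ± 0.06, or 1.34-fold (limma, adjusted p = 0.00017, 95% confidence interval from 0.29 to 0.56, n = 8 arrays per cell type). It was 0.43 when WT replicates 1, 2, 5 and 6 were left out and 0.42 when the other 4 WT arrays were, and passed each time.

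Id2 ran from -2.07 to -1.65 in M833, with a median of -1.89, and from -2.51 to -2.08 in WT, with a median of -2.30. Averaged over both probes the groups did not overlap, by a margin of 0.01 between M833 replicate 6 at -2.07 and WT replicate 1 at -2.08. At each probe alone they overlapped. Probe 211321 had M833 replicate 2 at -2.162 and WT replicate 1 at -1.905, both with the sample in Cy5. Probe 209388 had M833 replicate 6 at -2.245 and WT replicate 2 at -2.132. The difference of Id2 was 0.42 ± 0.08, or 1.34-fold (limma, adjusted p = 0.00133, 95% confidence interval from 0.25 to 0.60, n = 8 arrays per cell type). Both probes gave it, with 0.45 ± 0.08 at probe 209388 and 0.40 ± 0.10 at probe 211321 (limma on single probes, adjusted p = 0.000982 and 0.00995). The size depended on the WT arrays, with 0.58 when WT replicates 1, 2, 5 and 6 were left out and 0.27 when the other 4 were (limma, adjusted p = 0.000167 and 0.0236). In WT, replicates 1, 2, 5 and 6 lay between -2.27 and -2.08 and replicates 3, 4, 7 and 8 between -2.51 and -2.32. In M833, replicates 1, 2, 5 and 6 lay between -2.07 and -1.90 and replicates 3, 4, 7 and 8 between -1.87 and -1.65. With log ratios scaled so that all arrays had the same median size of ratio, the difference of Id2 was 0.06 ± 0.13 and its call was lost (limma, adjusted p = 0.784), while that of Id3 was 0.33 and passed, where 26.7% of features did. That median size ran from 0.199 to 0.283 over the M833 arrays and from 0.230 to 0.343 over the WT arrays.

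**Figure D3:**
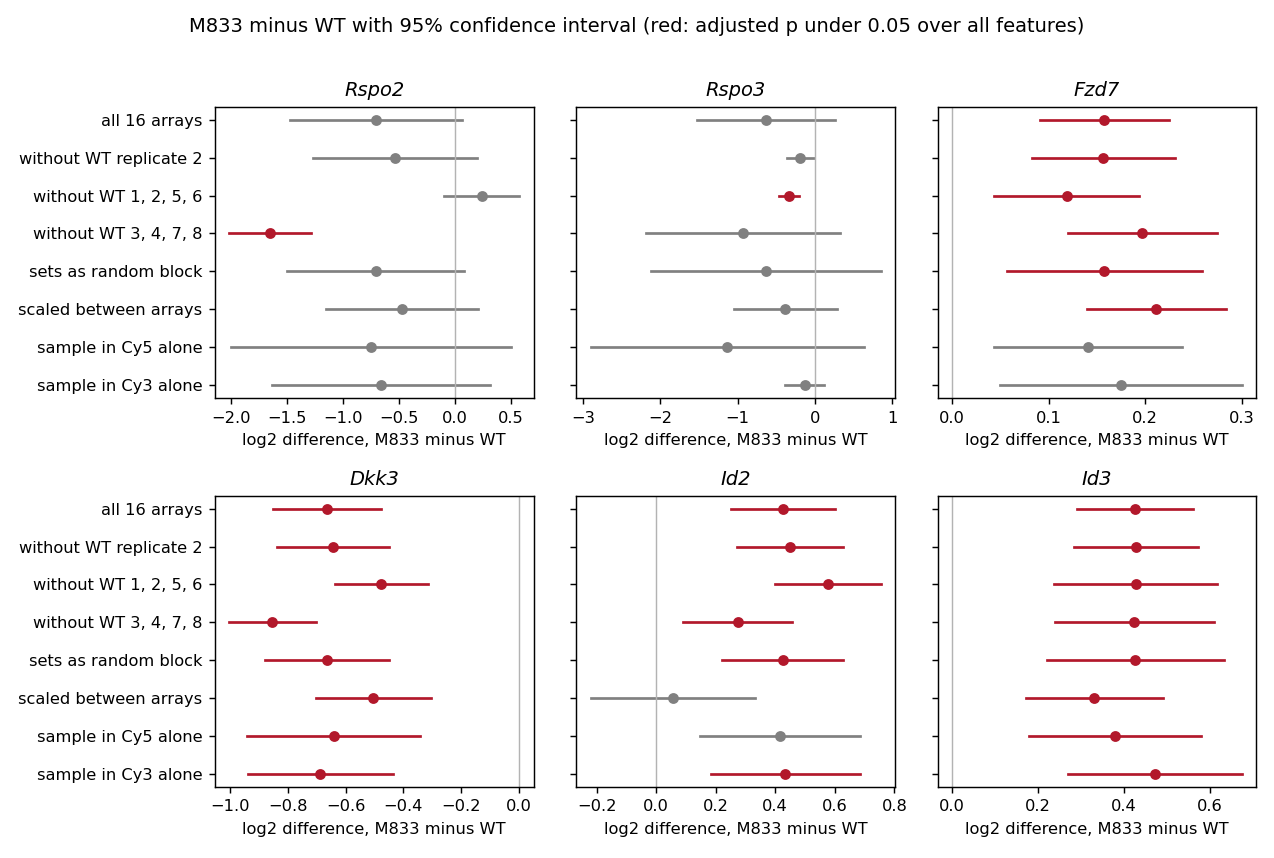
Log2 difference, M833 minus WT, with its 95% confidence interval (horizontal axes) for each of the 6 genes under 8 ways of fitting (rows), in red where the adjusted p over all features was under 0.05. Dkk3 and Id3 are red in all 8 rows, Id2 is near 0 with scaling between arrays, and Rspo2 lies at 0.24 or at -1.65 depending on which set of 4 WT arrays is left out.

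The 250 bases before the starts of Id2 and Id3 are printed because both were higher in M833 in the fit of all arrays and are known Smad targets. They come from RefSeq on GRCm38.p6, at chr12:25096093-25096342 on the minus strand for Id2 and at chr4:136143572-136143821 on the plus strand for Id3. Capitals mark GGCGCC, a GC-rich element of BMP-responsive genes that reads the same on both strands, and the Smad-binding letters GTCT or, on the other strand, AGAC.
Id2: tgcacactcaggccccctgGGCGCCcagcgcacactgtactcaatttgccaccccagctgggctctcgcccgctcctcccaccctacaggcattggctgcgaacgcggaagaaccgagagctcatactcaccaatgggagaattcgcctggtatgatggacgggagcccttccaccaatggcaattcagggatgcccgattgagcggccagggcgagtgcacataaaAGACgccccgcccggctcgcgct
Id3: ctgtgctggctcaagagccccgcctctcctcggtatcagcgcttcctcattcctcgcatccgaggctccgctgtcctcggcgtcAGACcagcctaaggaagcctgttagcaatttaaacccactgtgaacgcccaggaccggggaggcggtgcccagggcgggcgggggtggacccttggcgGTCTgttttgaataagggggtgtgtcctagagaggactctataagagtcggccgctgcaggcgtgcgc
Id2 held 1 match to GGCGCC, which began 231 bases before the start, and Id3 held 0, where 9.59% of all 32851 windows held it. The short Smad-binding letters stood at 1 place in Id2 and at 2 in Id3, and 82.9% of windows held them. The matches do not overlap, and they are letters in a window and not sites of binding. RefSeq promoters were matched for 3 of the 6 genes, Fzd7, Id2 and Id3, and Fzd7 held 0 matches to either Smad motif in its window.

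Id1, the third measured Id gene, had a difference of 0.07 ± 0.09, which missed the threshold (limma, adjusted p = 0.588, 95% confidence interval from -0.12 to 0.27). Its ratio averaged -1.75 ± 0.11 in M833 and -1.82 ± 0.25 in WT (SD after adjustment for dye, n = 8 each). When WT replicates 1, 2, 5 and 6 were left out, Id1 was higher in M833 by 0.28 ± 0.07 and was called (limma, adjusted p = 0.0103). With ratios scaled between arrays its difference was -0.25 ± 0.12, not called (limma, adjusted p = 0.139). Whether Id1 differed less than Id2 or Id3 was not tested. The genes most like Id2 over the 15 arrays were Sgo1 (r = 0.97), Cep55 (r = 0.97) and Cdca2 (r = 0.96), all genes of mitosis. Cep55, a gene of cytokinesis, lay between 0.56 and 1.03 on the M833 arrays of both sets and between -0.23 and 0.40 on the WT arrays without replicate 2. Those most like Id3 were Nup62 (r = 0.94) and Nup93 (r = 0.93), genes of the nuclear pore, and Nucks1 (r = 0.93). Among the 6 genes, Id2 and Id3 correlated with r = 0.81, Dkk3 and Id3 with r = -0.86, Dkk3 and Fzd7 with r = -0.85, and Rspo2 and Rspo3 with r = -0.37 over the 15 arrays. These values include the difference between the cell types and so describe it in part.

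Other called genes of both pathways lay on both sides of 0. Of 25 measured Wnt pathway genes other than these, 4 were higher in M833, 5 lower and 16 did not pass, beside the 10.0% of all features called higher and 15.9% called lower, with a median log2 difference of -0.06 where all features had -0.03. No measured Wnt ligand passed: Wnt4 differed by 0.31 ± 0.21, Wnt6 by -0.40 ± 0.24 and Wnt2 by -0.57 ± 0.62. Wnt2 and Wnt6 also had their highest values on WT replicate 2, at 5.10 and 2.01. The ligases that R-spondins bind, Rnf43 (0.01 ± 0.04) and Znrf3 (0.05 ± 0.11), did not pass either.

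Among Wnt receptors 1 of 4 was higher, Fzd7 itself, and 1 was lower. The lower one was Ryk, a receptor tyrosine kinase-like Wnt receptor, at -0.28 ± 0.07 (limma, adjusted p = 0.0113, SE, n = 8 arrays per cell type). Ryk spanned 0.50 to 0.65 in M833, 0.997 to 1.10 in WT replicates 1, 2, 5 and 6, and 0.60 to 0.75 in the other WT replicates. Without WT replicates 1, 2, 5 and 6 its difference was -0.09 (adjusted p = 0.0624, limma), and with ratios scaled between arrays it was -0.15 (adjusted p = 0.114, limma), neither called. Of 3 secreted antagonists and Dickkopf genes, Dkk3 was lower and Apcdd1, a membrane-bound Wnt inhibitor grouped here with them, was higher at 0.51 ± 0.14 (limma, adjusted p = 0.0125). Apcdd1 was not called with the ratios scaled between arrays (0.21) or without WT replicates 1, 2, 5 and 6 (0.32). Dkk1, the canonical blocker of the co-receptors, differed by -0.19 ± 0.07 and just missed the threshold (limma, adjusted p = 0.0525).

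Among 9 measured Wnt transducers, Tle4, a co-repressor of TCF factors, was higher at 0.33 ± 0.07, and Axin1, a scaffold of the complex that degrades beta-catenin, at 0.13 ± 0.04. Bcl9, a co-activator of beta-catenin, was lower at -0.16 ± 0.05, and the other 6 did not pass, Ctnnb1 itself with -0.09 ± 0.06. Adjusted p-values in limma were 0.00156 for Tle4, 0.0388 for Axin1 and 0.0311 for Bcl9. Axin1 and Bcl9 were not called without WT replicates 1, 2, 5 and 6 (adjusted p = 0.253 and 0.149, limma). Of 6 measured Wnt target genes 3 were lower, namely the cyclin gene Ccnd1 at -0.33 ± 0.06 and the AP-1 genes Jun at -0.24 ± 0.06 and Fosl1 at -0.18 ± 0.04, and Cd44, the hyaluronan receptor gene, was higher at 0.33 ± 0.10 (SE, n = 8 arrays per cell type). Cd44 was at 0.08 and Jun at -0.15 without WT replicates 1, 2, 5 and 6, and neither was called there (adjusted p = 0.31 and 0.117, limma). Myc (-0.07 ± 0.10) and Nkd2 (0.07 ± 0.19) did not pass. Beside these counts by role, 15.9% of all features were called lower and 10.0% higher.

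Of 13 measured BMP pathway genes other than Id2 and Id3, 1 was higher, 1 lower and 11 did not pass, with a median of 0.01. Beside this, 10.0% of all features were called higher and 15.9% lower, with a median of -0.03. The pair that passed were activin type II receptor genes, whose products also bind BMPs. Acvr2b was at 0.44 ± 0.10 (limma, adjusted p = 0.00322) and Acvr2a at -0.25 ± 0.06 (limma, adjusted p = 0.00909, SE, n = 8 arrays per cell type). Without WT replicates 1, 2, 5 and 6 Acvr2a was at -0.13 and not called (adjusted p = 0.13, limma), and Acvr2b was at 0.27 and called. The ligand genes Bmp2 (-0.003 ± 0.06) and Bmp4 (-0.05 ± 0.04) did not pass, nor did the signal-carrying Smad1 (0.15 ± 0.06) and Smad5 (0.001 ± 0.07). Of 4 measured bHLH genes, Hand1, a factor of heart and limb development, was higher at 0.27 ± 0.06 (limma, adjusted p = 0.00452). It was at 0.16 and not called without WT replicates 1, 2, 5 and 6 (adjusted p = 0.0783, limma). The E protein genes Tcf3, Tcf4 and Tcf12, whose products are the main partners of Id proteins, did not pass, and Tcf3 was at 2.59 on WT replicate 2. With the sets of 4 arrays as a random block, where 11.5% of features were called, Dkk3, Id3, Id2 and Fzd7 stayed called (limma, adjusted p = 0.000531, 0.00969, 0.00913 and 0.0419). Of the other pathway genes, Apcdd1, Axin1, Bcl9, Jun, Fosl1, Cd44 and Acvr2a lost their calls there (limma, adjusted p = 0.155, 0.259, 0.285, 0.0872, 0.0807, 0.0622 and 0.0923). The block fit used a single correlation of 0.32 for all features and only 4 sets. It may therefore understate the set effect for genes that split by set. With each set averaged into 1 replicate, 0 features were called by limma.

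Leaving out a set of WT arrays also added calls among the 42 pathway genes other than the 6. Without WT replicates 1, 2, 5 and 6, where 33.9% of features were called, 8 of these genes lost their calls and 10 gained one. The gains were Csnk1a1 (0.11), Smad5 (0.16), Tcf4 (0.11) and Id1 higher, and Apc (-0.17), Ctnnb1 (-0.18), Myc (-0.27), Nkd2 (-0.42), Bmp4 (-0.14) and Bmpr2 (-0.24) lower. When the other 4 WT arrays were left out, where 36.3% were called, 0 lost and 8 gained a call. These were Smad1 (0.29), Smurf1 (0.30), Bmpr2 (0.15) and Nkd2 (0.57) higher, and Smad5 (-0.16), Tcf4 (-0.42), Twsg1 (-0.17) and Wnt6 (-0.83) lower. Bmpr2, Nkd2, Smad5 and Tcf4 were thus called in opposite directions depending on which WT arrays stood for WT. The shares of all features that gained, lost or reversed a call are not given here. These counts are therefore not a result about the pathways. With ratios scaled between arrays, Apc (-0.20) and Myc (-0.33) gained calls.

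**Figure D4:**
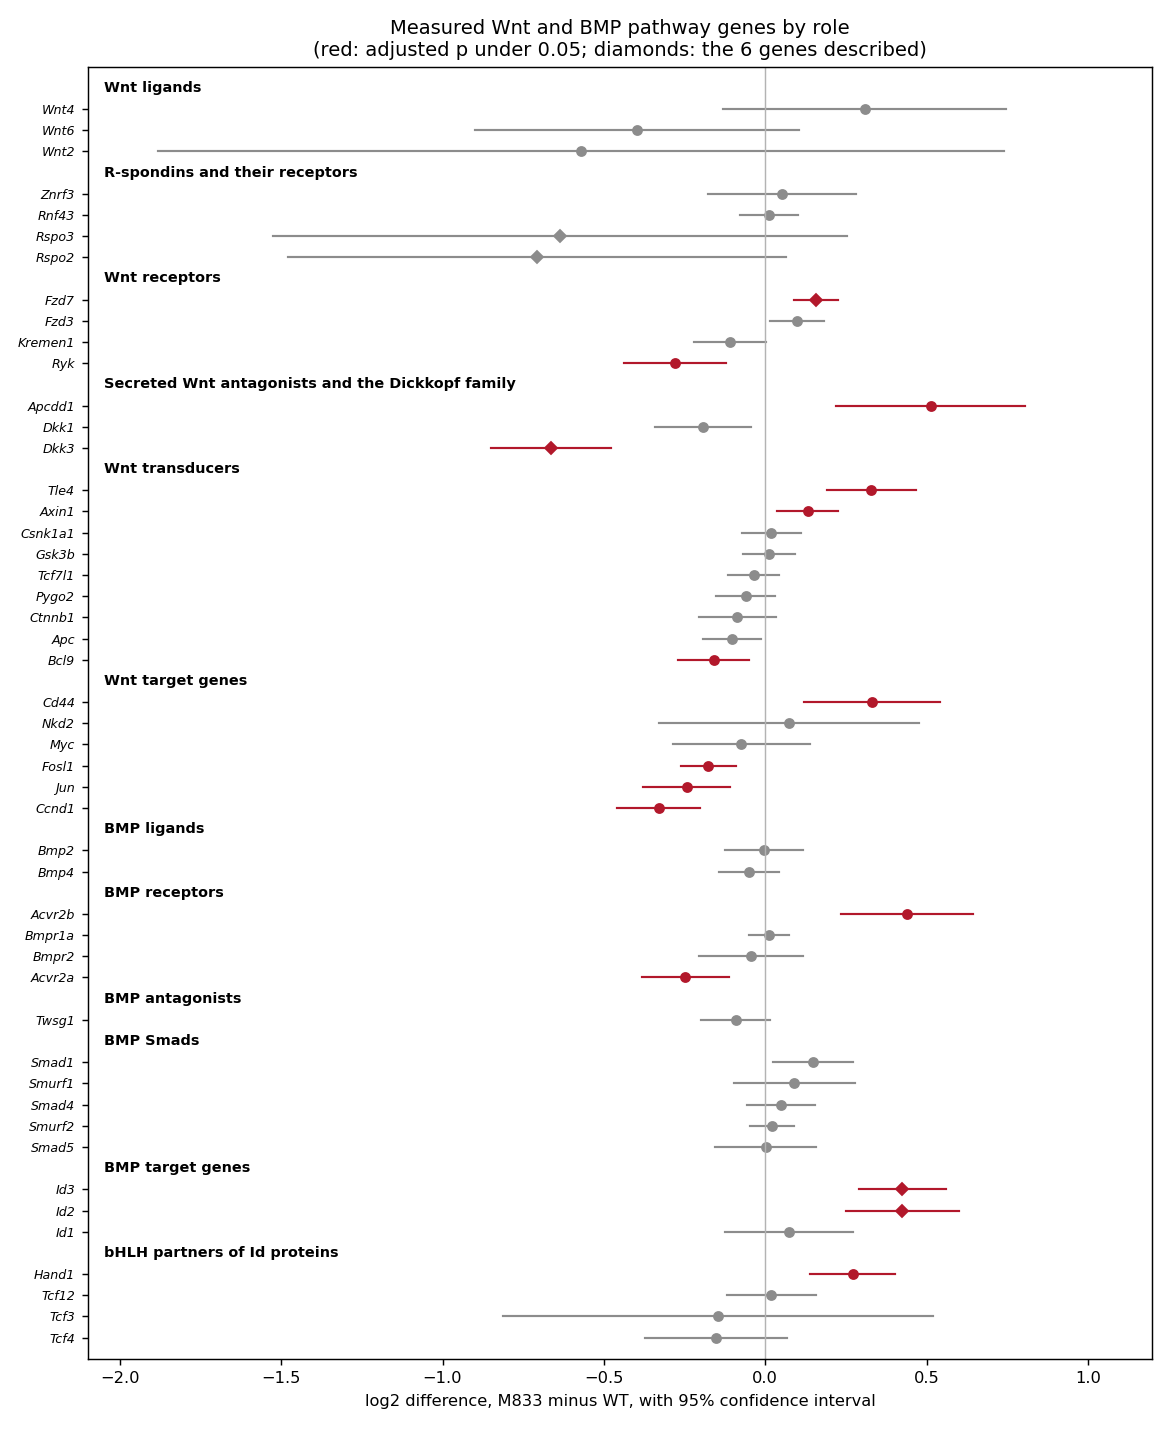
Log2 difference, M833 minus WT, with its 95% confidence interval (horizontal axis) for each measured Wnt and BMP pathway gene, grouped by role, in red where the adjusted p was under 0.05 and as diamonds for the 6 genes described. Intervals are widest for Wnt2, Rspo3 and Rspo2, and red genes lie on both sides of 0.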

How the data were processed

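Two-colour arrays of M833 and WT cells, with 8 arrays each, were grouped by the channel labels, and replicates were numbered in series order. The deposited values are log2 ratios that the authors had normalised, with limma per the submitters' processing notes, and no source used here names the background correction, the normalisation method or any filter. That the base is 2 was read from the range of the ratios, and array medians lay between -0.02 and 0.07. Scale and centring are otherwise not described. Every pair of arrays correlated positively (r from 0.591 to 0.973), so no sign was turned.

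Of 15247 probes, 9600 had a single symbol in the platform annotation, 214 several and 5433 none. Averaging probes of a gene gave 12761 features. The test was lmFit and eBayes of limma 3.58.1 under R 4.3.3, on 16 arrays, with terms for cell type and dye, and p-values were adjusted over all features by Benjamini-Hochberg. The fit was first tested on simulated data with errors independent between arrays. That test held neither the sets of arrays nor the extreme values of WT replicate 2. Of 50 features changed by a log2 difference of 0.25 it recovered 60%, and of 50 changed by 0.5 it recovered 94%, with 12 false calls. Standard errors of the fit also treat arrays as independent.

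The 6 genes and the pathway and marker lists were chosen with earlier results of these data known. Named were the 6 genes, the called genes of each list (at most 4 in the direction most of them shared and 2 opposite), and the 3 genes most correlated with each of the 6 over 15 arrays. Genes named that did not pass, such as Id1, Dkk1, Wnt2, Bmp4 and Ctnnb1, were added after their values were seen. Alternatives were centring, scaling to the same median absolute ratio, no dye term, single probes, array weights, robust moderation, 1 dye orientation, values beyond 8 set missing, each array or set of arrays left out, and sets as random block or as 1 replicate. Single probes with WT replicate 2 left out, and WT replicates 1, 5 and 6 alone, were added after seeing the data.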

Additional observations from a re-analysis of the deposited data

Results flagged for a closer look

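Rspo3 on WT replicate 2, at a log2 ratio of 4.52 averaged over both probes, lay far from the other 7 WT arrays, which ran from 0.56 to 1.17. The gap to the nearest of them was 0.846 of the whole range, above Dixon's 95% limit for 8 arrays. This array had been singled out for a check of Rspo3 from earlier results of these data, so the mark restates that choice and is no separate evidence. The value came from probe 211936 at 8.52, on the array that held all 49 log2 ratios beyond 8, while probe 211135 of the same gene was at 0.52 there.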

How the results depend on the processing

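Dkk3 and Id3 kept their direction and call in every alternative but 1, and differed by -0.88 to -0.48 and by 0.33 to 0.52. When each set of 4 arrays was averaged into 1 replicate (2 M833, 2 WT), 0 features were called by limma (0 higher, 0 lower) and 0 of the 6 genes (0 higher, 0 lower), with 1675 features at an unadjusted p under 0.05, and Dkk3 (-0.66), Id3 (0.43), Id2 (0.42) and Fzd7 (0.16) lost their calls. Fzd7 also lost its call without the dye term (0.16), with the sample in Cy5 alone (0.14) and in Cy3 alone (0.17). Id2 lost its call with scaling between arrays (0.056), in Cy5 alone (0.42) and without M833 replicates 3, 4, 7 and 8 (0.29, adjusted p = 0.053 in limma). Rspo2 reversed to 0.24 without WT replicates 1, 2, 5 and 6 and was called without WT replicates 3, 4, 7 and 8 (-1.65) and against WT replicates 1, 5 and 6 alone (-1.60). Rspo3 was called without WT replicates 1, 2, 5 and 6 (-0.34) and reversed to 0.0097 against WT replicates 1, 5 and 6 alone. These calls of Rspo2 and Rspo3 rest on sets seen in the same arrays and are a description. With a single array left out, Rspo2 ran from -0.87 to -0.54, Rspo3 from -0.76 to -0.19 and Fzd7 from 0.14 to 0.17, and no call of the 6 genes changed.

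Of the 6 genes 4 passed in the fit of all arrays (3 higher, 1 lower), against 2 (1 higher) in Cy5 alone, and 2 were lower without either set of WT arrays. Over all features 3301 were called (1276 higher, 2025 lower). The count was 2000 (780 and 1220) without the dye term, 835 (287 and 548) in Cy5 alone, 1100 (406 and 694) in Cy3 alone and 1465 (562 and 903) with sets as a random block. It was 1685 (661 and 1024) without M833 replicates 1, 2, 5 and 6 and 1858 (699 and 1159) without M833 replicates 3, 4, 7 and 8. Without the 3 M833 arrays of a second slide series, replicates 6, 7 and 8, 1348 features were lower. In that fit 4 of the 6 genes were called, where 17.3% of features were, with Fzd7 at 0.13 (limma, adjusted p = 0.0394). Centring each array on its median gave 1558 higher and 1635 lower. Apart from fewer arrays in some fits, the cause of these changes was not tested. No paired analysis was possible because the labels carry no replicate numbers. Signal over background was not analysed here, so dim probes could not be told from bright ones.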

Other observations

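Besides Rspo2, other measured Wnt and bHLH genes took 2 separate levels over the WT arrays, and these were picked after their values were seen. Nkd2, which encodes an inhibitor of Dishevelled proteins, lay from -1.07 to -0.71 over the M833 arrays. In WT it spanned -1.68 to -1.17 in replicates 1, 2, 5 and 6, against -0.56 to -0.36 in the other replicates, so that the M833 arrays fell between the WT levels. Cd44 lay from 0.81 to 1.11 in M833, and from 0.38 to 0.45 and from 0.85 to 0.96 on the same sets of WT arrays. Tcf4 lay from -0.54 to -0.41 in M833, and from -0.19 to 0.14 and from -0.61 to -0.53 on the sets of WT arrays.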
